A study of Penicillium oxalicum with 6 samples.

Results

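This account describes 67 genes of the fungus Penicillium oxalicum whose transcripts were at high levels in a mutant deleted for PoxTMA7 and at lower levels in the wild type (WT). The genes were selected by their measured values from the 9137 gene identifiers listed in any of the 6 libraries. A gene was taken when its mean over the 3 mutant libraries was at least 40 FPKM and at least 2 times its WT mean, when its lowest mutant value lay above its highest WT value, and when its highest WT value was at least 1 FPKM. FPKM is a level per length of gene and per depth of library. Because these values chose the genes, the differences between the genotypes given here are descriptions and no test of them is offered. The 67 genes were 6.7% of the 1000 genes with a mutant mean of at least 40 FPKM.

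Penicillium oxalicum is a filamentous fungus that grows on dead plant matter and secretes cellulases, xylanases and amylases. In such fungi the genes for these enzymes are switched on when the carbon source changes from an easily used sugar to a polymer, and many other genes change with them. Tma7 is a small protein named in Saccharomyces cerevisiae for its association with the translation machinery, and PoxTMA7 carries the same name. The files give the genes as identifiers only, without a name, a product or a position. None of the 9137 identifiers matched a gene of the RefSeq table for this species (assembly ASM172317v3), so no role and no sequence is given for any of the 67 genes. Which of them, if any, encode secreted enzymes was therefore not analysed here.

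The comparison was between groups of 3 libraries each, one labelled as a knockout of PoxTMA7 in WT (ΔPoxTMA7) and one labelled WT. The series title names the strain HP7-1, and the design text gives the aim as finding how PoxTMA7 acts on cellulase and xylanase production. Both groups were grown on agar for 4 days at 28 °C, pre-grown from spores in glucose medium for 24 h, and then kept for 24 h in the test medium, where RNA was taken from mycelia. For the test medium, 1% Avicel, a microcrystalline cellulose, stands in the design text and the treatment label, but the protocol gives raw starch as the sole carbon source. The 2 statements disagree, and the files do not settle which holds. Whether the libraries are separate cultures, and how many transformants they stand for, is not stated. The deleted gene could not be tied to an identifier, so the genotype was not checked on it.

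The depth that scales the FPKM values, recovered from the steps between low values, was 11665908 to 20808413 reads per library. ΔPoxTMA7 replicate 1 stood apart from the other mutant libraries. Across the 6743 genes tested it correlated with them at 0.976 and 0.971 and with WT at 0.950 to 0.957, whereas ΔPoxTMA7 replicates 2 and 3 correlated with each other at 0.991. The median log2 change over all tested genes was 0.11 with the deposited scaling and -0.03 with median-ratio scaling, a difference that bears on every level below. RNA was taken from whole mycelium, so more RNA per cell and more cells expressing a gene cannot be told apart.

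The 67 genes ran over a wide range of levels, and most were already well transcribed in WT. Their mean in ΔPoxTMA7 had a median over the genes of 129 FPKM and ran between 40.5 and 1968 FPKM, against a median of 41.7 FPKM in WT and a range of 1.03 to 803 FPKM. In 36 of the genes the WT mean was at least 40 FPKM, in 26 it was at least 10 but under 40 FPKM, and in 5 it was under 10 FPKM. Ranked by mean level among all identifiers, 13 of the 67 were among the 100 most abundant transcripts in ΔPoxTMA7, against 1 in WT. The ratio of means, ΔPoxTMA7 over WT, had a median of 2.81. It was under 3 in 39 genes, at least 3 but under 5 in 13, at least 5 but under 10 in 10, and at least 10 in 5. Over all 6743 tested genes, 38.6% also had every mutant value above every WT value, a property that the rule fixed for the 67.

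**Figure D1:**
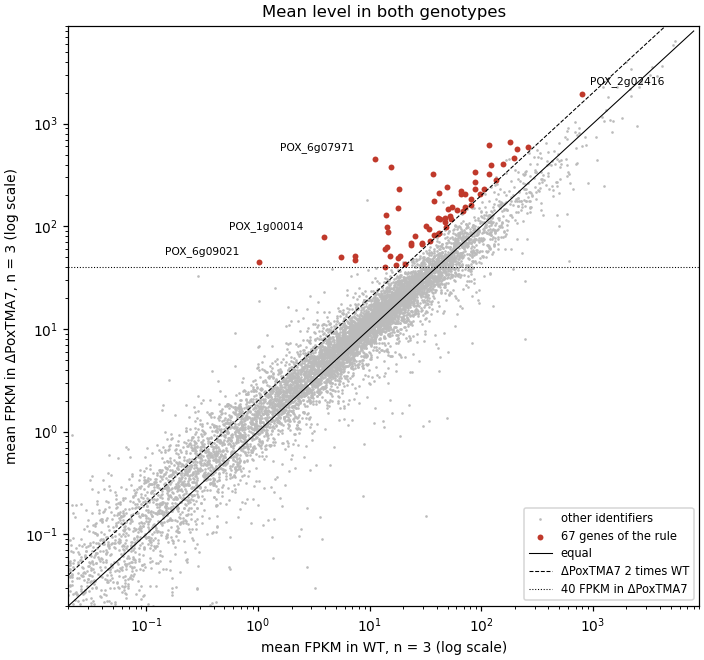
Mean FPKM of each identifier in ΔPoxTMA7 (vertical axis, log scale, n = 3 libraries) against WT (horizontal axis, log scale, n = 3 libraries), with identifiers below either axis minimum left out. The 67 genes of the rule (red) fill the region above the dashed 2-fold line and the dotted 40 FPKM line, from POX_6g09021, at 1.03 FPKM in WT, to POX_2g02416, at 803 FPKM in WT.

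The most abundant of the 67 was POX_2g02416. It had 1387, 2183 and 2334 FPKM in ΔPoxTMA7 replicates 1, 2 and 3, against 788, 804 and 818 FPKM in WT replicates 1, 2 and 3. All values of a gene are given in that replicate order from here on. The mutant mean was 1968 ± 509 FPKM and the WT mean 803 ± 14.9 FPKM (SD, n = 3 each), a ratio of 2.45. The 3 WT libraries lay close together, while ΔPoxTMA7 replicate 1 was well below the other mutant libraries and still above all of WT. The gene ranked 15 by mean level in ΔPoxTMA7 and 31 in WT.

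The next in order of mutant mean were POX_6g08739, POX_1g00668 and POX_3g03763, well below it. POX_6g08739 measured 604, 718 and 664 FPKM in ΔPoxTMA7, against 186, 169.5 and 191 FPKM in WT (662 ± 56.9 and 182 ± 11.3 FPKM, SD, n = 3 each). Its 3 mutant values lay closer together than those of the other 2 genes. POX_1g00668 measured 515, 798 and 567 FPKM in ΔPoxTMA7, against 118, 114 and 121 FPKM in WT, a ratio of means of 5.32. POX_3g03763 measured 611, 742 and 436 FPKM in ΔPoxTMA7, against 264, 277 and 238 FPKM in WT, a ratio of 2.30. In POX_3g03763 it was replicate 3, not replicate 1, that was the lowest mutant library.

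Of the genes that followed in order of mutant mean, 4 were also well transcribed in WT and had ratios between 2.37 and 3.22. In POX_6g07982 the mutant libraries held 516, 645 and 538 FPKM, against 197, 216 and 218 FPKM in WT, a ratio of 2.69. In POX_4g06586 they held 495, 594 and 315 FPKM, against 177, 220.3 and 196 FPKM in WT, a ratio of 2.37. The gap between the genotypes was narrow in POX_4g06586, where ΔPoxTMA7 replicate 3 was only 1.43 times the highest WT value. In POX_4g05914 they held 292, 488 and 438 FPKM, against 165, 137 and 167 FPKM in WT, a ratio of 2.60. In POX_4g05223 they held 399.7, 434 and 352 FPKM, against 127, 128 and 114 FPKM in WT, a ratio of 3.22. No WT library of these 4 genes exceeded 220.3 FPKM, and no mutant library of them was under 292 FPKM.

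POX_7g09755 and POX_7g09700, also among the 12 genes of highest mutant mean, had lower WT levels than those 4. POX_7g09755 had 361, 385 and 277 FPKM in ΔPoxTMA7, against 95.6, 85.7 and 82.6 FPKM in WT (341 ± 56.8 and 88.0 ± 6.83 FPKM, SD, n = 3 each). POX_7g09700 had 233, 383 and 354 FPKM in ΔPoxTMA7, against 37.2, 38.7 and 33.9 FPKM in WT (323 ± 79.6 and 36.6 ± 2.44 FPKM, SD, n = 3 each). The ratio was 3.88 for POX_7g09755 and 8.84 for POX_7g09700, and the lowest mutant library was 2.90 and 6.02 times the highest WT library in these genes.

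**Figure D2:**
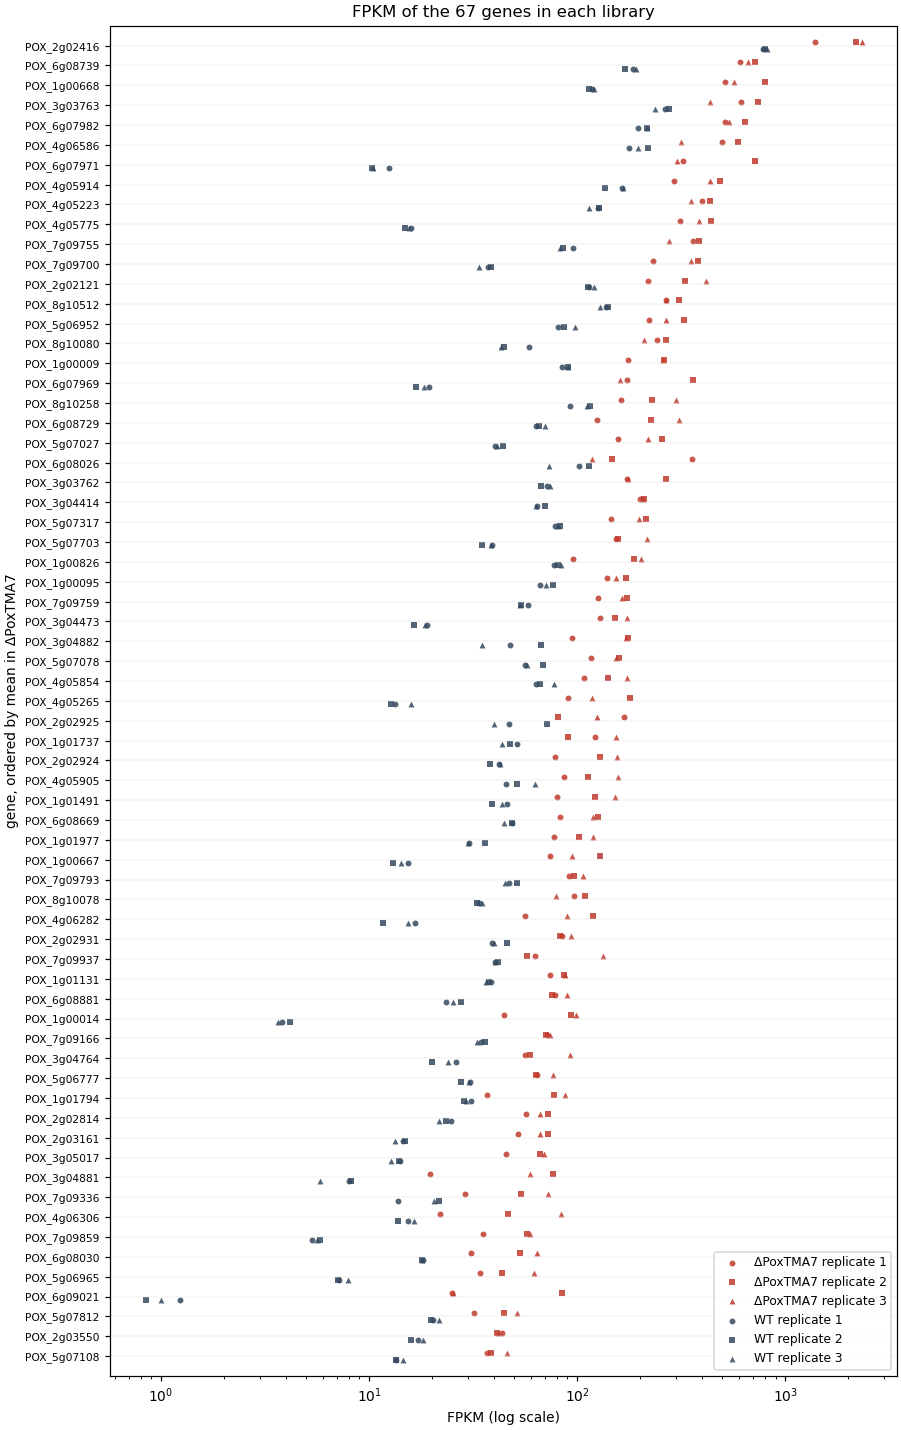
FPKM (horizontal axis, log scale) of each of the 67 genes, 1 gene a row in order of the mean in ΔPoxTMA7, with a symbol for each of the 3 ΔPoxTMA7 (red) and 3 WT (dark) libraries. The WT symbols of a gene mostly overlie each other, the mutant symbols spread more widely, and ΔPoxTMA7 replicate 1 (circles) is the lowest mutant value in 50 of the rows.

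The largest ratios belonged to genes that were weak or middling in WT, and 4 of the 67 had a ratio of at least 20. POX_6g09021 had 25.2, 84.4 and 25.3 FPKM in ΔPoxTMA7, against 1.23, 0.844 and 1.00 FPKM in WT, where it was the weakest of all 67, a ratio of 43.8. The mutant values rested on 719, 3780 and 884 recovered reads and the WT values on 31, 30 and 30, so counting error is widest for this gene. Replicate 2 was far above the other mutant libraries, and without it the ratio was 24.6. POX_6g07971 had 324, 716 and 303 FPKM in ΔPoxTMA7, against 12.5, 10.3 and 10.5 FPKM in WT, a ratio of 40.4. Every mutant library of POX_6g07971 was at least 24.4 times the highest WT library, the widest gap of the 67.

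POX_4g05775 and POX_1g00014 followed. POX_4g05775 had 313, 438 and 386 FPKM in ΔPoxTMA7, against 16.0, 14.9 and 15.5 FPKM in WT (379 ± 63.1 and 15.5 ± 0.552 FPKM, SD, n = 3 each), a ratio of 24.5. It ranked 79 in ΔPoxTMA7 and 2523 in WT by mean level, with its lowest mutant value 19.5 times its highest WT value. POX_1g00014 had 44.4, 93.9 and 99.1 FPKM in ΔPoxTMA7, against 3.84, 4.19 and 3.64 FPKM in WT, a ratio of 20.4. Its replicate 1 value was well below the other mutant values and 10.6 times the highest WT value.

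The other genes of the 12 with the largest ratios lay between 6.29 and 12.7. POX_6g07969 had 173, 361 and 160.3 FPKM in ΔPoxTMA7, against 19.4, 16.8 and 18.3 FPKM in WT. POX_4g05265 had 90.7, 179 and 118 FPKM in ΔPoxTMA7, against 13.3, 12.7 and 15.9 FPKM in WT, a ratio of 9.26. Both had their highest mutant value in replicate 2. POX_7g09859 had 35.5, 57.5 and 59.4 FPKM in ΔPoxTMA7, against 5.35, 5.82 and 5.62 FPKM in WT, a ratio of 9.08. POX_3g04473 had 129, 153 and 174 FPKM in ΔPoxTMA7, against 19.1, 16.4 and 18.6 FPKM in WT, a ratio of 8.43. POX_3g04473 was tight in both genotypes, with a coefficient of variation (CV, the SD as a percent of the mean) of 14.9% in ΔPoxTMA7 and 7.75% in WT. POX_5g06965 had 34.2, 43.6 and 62.0 FPKM in ΔPoxTMA7, against 7.18, 7.09 and 7.95 FPKM in WT.

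A few of the 67 were nearly equal in the 3 mutant libraries. POX_3g04414 had the smallest mutant spread, with 201, 209 and 207 FPKM in ΔPoxTMA7, against 64.0, 70.1 and 63.2 FPKM in WT (CV 1.95% and 5.73%). POX_7g09166 had 72.2, 70.6 and 73.9 FPKM in ΔPoxTMA7, against 34.5, 36.1 and 33.1 FPKM in WT (CV 2.29% and 4.40%). POX_2g03550 had 43.6, 41.5 and 41.8 FPKM in ΔPoxTMA7, against 17.1, 16.0 and 18.2 FPKM in WT. In these 3 genes replicate 1 lay close to the other mutant libraries, and in POX_2g03550 it was the highest of them. POX_2g02931, the next in order of mutant spread, had 84.6, 82.5 and 93.2 FPKM in ΔPoxTMA7, against 39.1, 46.1 and 39.9 FPKM in WT (CV 6.57% and 9.17%). POX_7g09793 had 91.3, 96.7 and 107 FPKM in ΔPoxTMA7, against 47.2, 51.6 and 45.3 FPKM in WT (CV 7.98% and 6.67%). In POX_7g09793 replicate 1 was the lowest mutant library, and in POX_2g02931 it was replicate 2.

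The other 25 genes, which are not named one by one, are given by their ranges. Their means were between 60.7 and 323 FPKM in ΔPoxTMA7 (median 118 FPKM) and between 13.6 and 136 FPKM in WT (median 41.9 FPKM). Their ratios were between 2.06 and 6.04 with a median of 2.75, and 16 of the 25 were under 3. The median CV of the 25 was 21.4% in ΔPoxTMA7 and 6.20% in WT, the same direction of unequal spread as in the whole set. Replicate 1 was the lowest mutant library in 21 of the 25, replicate 2 in 4 and replicate 3 in none. The lowest mutant value was 1.19 to 3.97 times the highest WT value, with a median of 1.88.

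The mutant libraries differed among themselves far more than the WT libraries did. Over the 67 genes the median CV was 24.0% in ΔPoxTMA7 and 6.65% in WT, and the mutant CV was the larger in 61 of the 67. Over the other 933 genes with a mutant mean of at least 40 FPKM, the medians were 11.4% in ΔPoxTMA7 and 4.59% in WT. The mutant CV was the larger in 788 of these 933 (84.5%) and in 76.5% of all tested genes. That direction was thus not particular to the 67. The 3 mutant values lay 2-fold or more apart in 15 of the 67 genes, or 22.4%, and in 66 of the 933 others, or 7.07%. No gene of the 67 had WT values 2-fold or more apart. Such genes were rare at large too, with 10 of the 933 others and 86 of the 6743 tested genes. These counts are descriptions, because the values that chose the genes also enter the spread.

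Replicate 1 was the lowest mutant library for most of the 67. It was the lowest in 50 genes (74.6%) and the highest in 3, against 359 lowest (38.5%) and 359 highest among the 933 others. Replicate 2 was the highest in 33 of the 67 and replicate 3 in 31, whereas among the 933 others replicate 2 was the highest in 136 and replicate 3 in 438. Under median-ratio scaling replicate 1 was still the lowest in 48 of the 67, and under quantile normalization in 51. The 933 others were not picked for a rise, and their median log2 change was -0.01. Over all tested genes replicate 1 was also the mutant library nearest WT, with replicates 2 and 3 correlating with WT at 0.918 to 0.930. The 67 and the others are thus unlike bases, and whether this order is particular to the 67 was not tested. Relative to the WT mean, the median over the 67 genes was 2.44 in replicate 1, 3.07 in replicate 2 and 3.23 in replicate 3. Each of the 3 mutant libraries was at least 2 times the WT mean in 36 of the 67 genes, beside 239 of the 6743 tested genes. The rule, which asked for a mean ratio of at least 2, partly fixed this count.

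**Figure D3:**
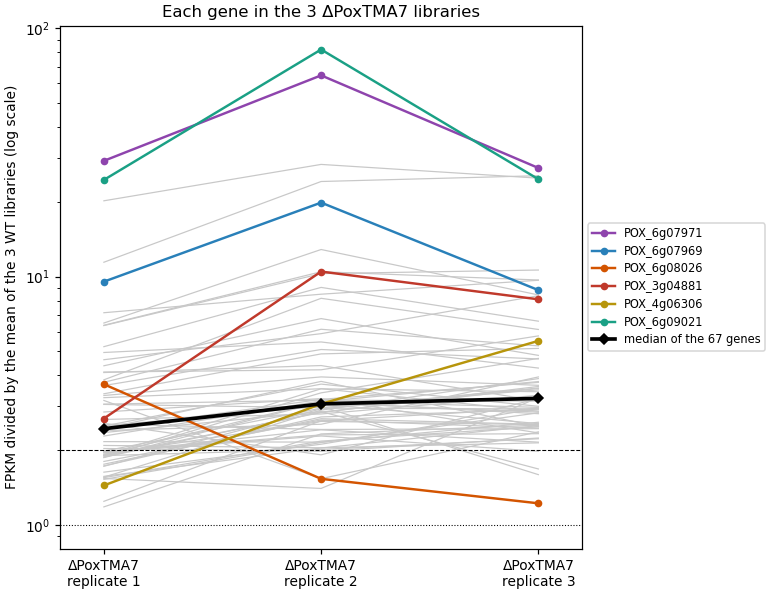
Level of each of the 67 genes in the 3 ΔPoxTMA7 libraries, as FPKM divided by the mean of the 3 WT libraries (vertical axis, log scale; dotted line at 1, dashed line at 2); lines join the values of 1 gene and imply no order of replicates. The median (black) is 2.44, 3.07 and 3.23 in replicates 1, 2 and 3, and the coloured genes depart from it, with POX_6g09021, POX_6g07971 and POX_6g07969 highest in replicate 2 and POX_6g08026 highest in replicate 1.

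The genes with the widest mutant spread did not share a pattern. POX_6g09021 (CV 75.9%) and POX_6g07971 (CV 51.9%) peaked in replicate 2, at 3.33 and 2.36 times their replicate 3 values. POX_3g04881 had 19.6, 76.8 and 59.3 FPKM in ΔPoxTMA7, against 7.99, 8.18 and 5.81 FPKM in WT, with replicate 1 far below the other mutant libraries. POX_4g06306 had 22.0, 46.8 and 84.0 FPKM in ΔPoxTMA7, against 15.4, 13.9 and 16.5 FPKM in WT, with its highest value in replicate 3. POX_6g08026 had 356, 148 and 118 FPKM in ΔPoxTMA7, against 102, 115 and 73.2 FPKM in WT. POX_6g08026 was far above WT in replicate 1 only, and its replicate 3 value was 1.03 times the highest WT value. Without ΔPoxTMA7 replicate 1 its ratio fell to 1.38, against 2.14 with all libraries, and it no longer met the rule.

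Spread within WT was large in few of the 67. The largest WT CVs were those of POX_3g04882 (32.5%), POX_2g02925 (32.0%), POX_7g09336 (22.9%), POX_6g08026 (21.9%) and POX_6g09021 (19.1%). POX_7g09336 had 29.1, 54.1 and 72.5 FPKM in ΔPoxTMA7, against 13.8, 21.7 and 20.5 FPKM in WT, with WT replicate 1 the lowest. POX_2g02925 had 168, 81.3 and 125 FPKM in ΔPoxTMA7, against 47.0, 72.1 and 39.8 FPKM in WT. In POX_2g02925 the lowest mutant library, replicate 2, was 1.13 times the highest WT library, also replicate 2. POX_3g04882 had 95.1, 176 and 172 FPKM in ΔPoxTMA7, against 47.5, 67.3 and 35.1 FPKM in WT, where replicate 2 was again the highest WT library.

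When the rule was applied with 1 mutant library left out, the genes it took mostly lay above WT in that library too, though less far in replicate 1. Without replicate 2 the rule took 69 genes, and 59 of them (85.5%) were at least 2 times the WT mean in replicate 2, against 7.47% of all tested genes. Without replicate 3 it took 62 genes, and 52 (83.9%) were at least 2 times the WT mean in replicate 3, against 10.8% of tested genes. Without replicate 1 it took 93 genes, of which 42 (45.2%) were at least 2 times the WT mean in replicate 1, against 4.7% of tested genes, and 87 were above every WT value. The median of the left-out value over the WT mean was 3.00 in replicate 2, 3.15 in replicate 3 and 1.95 in replicate 1. The same WT libraries entered both the choice and the ratio, and the limits of the rule were set with all libraries known. The tested genes beside them were not picked for a rise in any library. A larger share among the picked genes was therefore to be expected, and these counts are descriptions only.

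Several of the 67 had neighbouring identifiers. The number after the letter g runs on through the identifiers without restarting, and no source used here says whether it follows the order of genes along the genome. Of the 67 genes, 8 formed 4 pairs of consecutive numbers, and 18 of the 67 had another of the 67 within 5 numbers. No such count was made for other genes of like level, so no clustering is read from these numbers. In the pair POX_1g00667 and POX_1g00668, POX_1g00667 had 74.3, 129 and 94.1 FPKM in ΔPoxTMA7, against 15.4, 13.1 and 14.2 FPKM in WT. Its ratio was 6.96, and that of POX_1g00668 was 5.32. The identifiers on both sides of this pair, POX_1g00666 and POX_1g00669, had at most 0.127 FPKM in any library. The pair thus stood between identifiers that were near the limit of detection.

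The other consecutive pairs differed in how alike their genes were. POX_3g03762 had 173, 268 and 177 FPKM in ΔPoxTMA7, against 71.9, 67.2 and 73.9 FPKM in WT, a ratio of 2.90, beside 2.30 for POX_3g03763. The identifier before them, POX_3g03761, had 848, 865 and 518 FPKM in ΔPoxTMA7, against 569.8, 542 and 589 FPKM in WT, with replicate 3 below WT. POX_2g02924 had 78.5, 129 and 155 FPKM in ΔPoxTMA7, against 42.3, 38.1 and 42.8 FPKM in WT, a ratio of 2.94. Its neighbour POX_2g02925 was highest in replicate 1, the library in which POX_2g02924 was lowest among the mutant libraries. POX_3g04881 and POX_3g04882, by contrast, were both lowest in replicate 1, and POX_3g04881 had the larger ratio, 7.08 against 2.96.

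**Figure D4:**
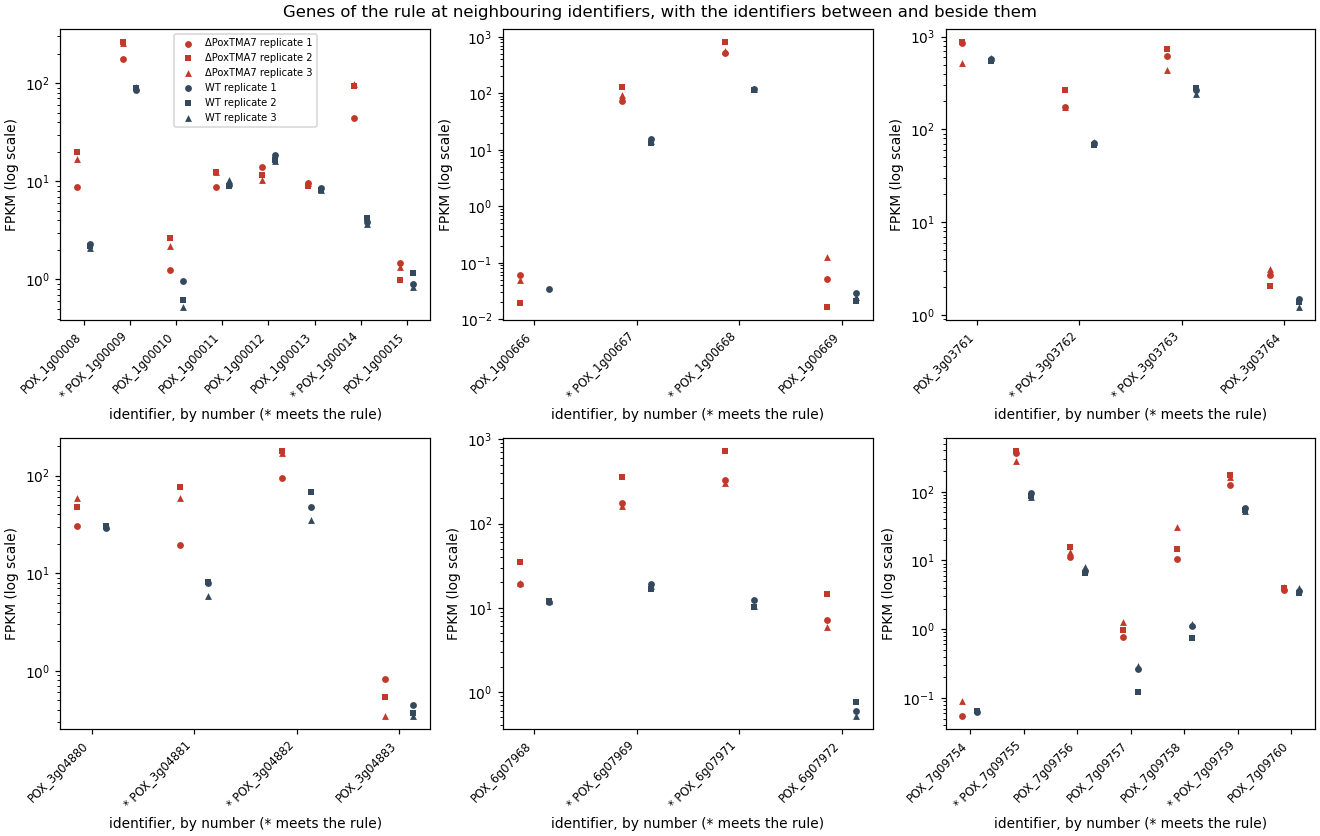
FPKM (vertical axes, log scale) in the 3 ΔPoxTMA7 (red) and 3 WT (dark) libraries for 6 stretches of neighbouring identifiers, in order of their number; identifiers marked * meet the rule, and a library listed at 0 has no symbol. POX_6g07969 and POX_6g07971 share their profile over the mutant libraries with POX_6g07968 and POX_6g07972, and POX_1g00667 and POX_1g00668 stand between identifiers under 0.2 FPKM.

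The stretch around POX_6g07969 and POX_6g07971 kept 1 profile over the mutant libraries. POX_6g07969 and POX_6g07971 are separated by 1 number that is listed in no library. The level of POX_6g07971 was 1.87, 1.98 and 1.89 times that of POX_6g07969 in ΔPoxTMA7, against 0.643, 0.613 and 0.571 times in WT, so their ratio to each other was steady within a genotype and differed between genotypes. The identifiers beside them were not of the 67. POX_6g07968 had 19.3, 34.5 and 19.6 FPKM in ΔPoxTMA7, against 11.7, 12.1 and 11.9 FPKM in WT, and POX_6g07972 had 7.18, 14.5 and 5.98 FPKM in ΔPoxTMA7, against 0.587, 0.751 and 0.516 FPKM in WT. All 4 of these genes had replicate 2 as the highest mutant library, and replicates 1 and 3 close to each other. It was not tested whether these identifiers share reads, so the profile may not be that of 4 separate transcripts.

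Further stretches held 2 of the 67 with other identifiers between them. POX_8g10080 had 243, 268 and 210.0 FPKM in ΔPoxTMA7, against 59.1, 44.8 and 43.4 FPKM in WT, and POX_8g10078 had 96.5, 109 and 79.5 FPKM in ΔPoxTMA7, against 33.7, 33.2 and 34.8 FPKM in WT. The identifier between them, POX_8g10079, was listed at 0 in 5 of the 6 libraries. POX_7g09759 had 126, 174 and 164 FPKM in ΔPoxTMA7, against 58.2, 54.1 and 53.2 FPKM in WT. Between it and POX_7g09755, POX_7g09758 had 10.7, 14.9 and 31.0 FPKM in ΔPoxTMA7, against 1.11, 0.740 and 1.20 FPKM in WT, a ratio of 18.5 that fell short of the rule by level only. POX_1g00009, a few numbers before the low POX_1g00014, was well transcribed, with 175, 261 and 259 FPKM in ΔPoxTMA7, against 84.5, 90.3 and 90.8 FPKM in WT. The identifier before it, POX_1g00008, had 8.75, 19.8 and 16.9 FPKM in ΔPoxTMA7, against 2.32, 2.18 and 2.07 FPKM in WT. The identifier after it, POX_1g00010, had 1.26, 2.62 and 2.20 FPKM in ΔPoxTMA7, against 0.967, 0.617 and 0.523 FPKM in WT. Between POX_1g00009 and POX_1g00014, only POX_1g00012 was lower in the mutant mean, with 13.9, 11.6 and 10.3 FPKM in ΔPoxTMA7, against 18.6, 16.4 and 16.3 FPKM in WT. Neighbours of the 67 were thus not all higher in the mutant. POX_6g08030, 4 numbers after POX_6g08026, had 31.1, 52.9 and 64.3 FPKM in ΔPoxTMA7, against 18.2, 18.1 and 18.0 FPKM in WT, a ratio of 2.74. Its replicate 1 was the lowest mutant library, whereas in POX_6g08026 that library was the highest.

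The identifiers next to the 67 more often had higher levels in the mutant than tested genes outside the 67 did, a description for which no test was made. Of the 85 tested genes that are not of the 67 and lie 1 number away from one, 37 (43.5%) were higher in ΔPoxTMA7 by limma (adjusted p under 0.05), against 30.1% of the tested genes outside the 67. Among the 85, 11 (12.9%) were also at least 2-fold higher on the log2(FPKM + 1) scale, against 2.52% of the tested genes outside the 67. Lower levels were called in 7 (8.24%), against 17.4% on the same base. At 2 numbers away 29 of 77 (37.7%) were higher and 4 (5.19%) at least 2-fold higher, and at 3 to 5 numbers away 78 of 213 (36.6%) and 5 (2.35%). The median log2 change was 0.30 at 1 number, 0.20 at 2 and 0.15 at 3 to 5, against 0.10 over all tested genes outside the 67. The gene lengths implied by the FPKM steps had a median of 3592 bp over all identifiers, while the genes of the RefSeq table have a median of 1330 bp. Whether neighbouring identifiers share reads was not tested.

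The 67 genes together took about 3 times as large a part of the mutant transcriptome as of the WT one. Their FPKM summed to 11777, 16072 and 14564 in ΔPoxTMA7, against 4500.2, 4638 and 4528 in WT, with means of 14138 ± 2179 and 4556 ± 73.0 (SD, n = 3 each), a direction that the rule fixed. As a share of all FPKM this was 4.85%, 6.49% and 5.95% in ΔPoxTMA7, against 1.83%, 1.90% and 1.85% in WT. As a share of recovered reads it was 4.28%, 5.80% and 5.31% in ΔPoxTMA7, against 1.62%, 1.68% and 1.63% in WT. The 3 WT sums lay close together, whereas mutant replicate 1 was well below the other mutant libraries and still far above WT. Without the 3 genes of highest mutant mean the ratio of the sums was 3.15, beside 3.10 with them. POX_2g02416 alone held 12.2% of the summed difference between the means, and the 12 genes with the largest differences held 52.0%.

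**Figure D5:**
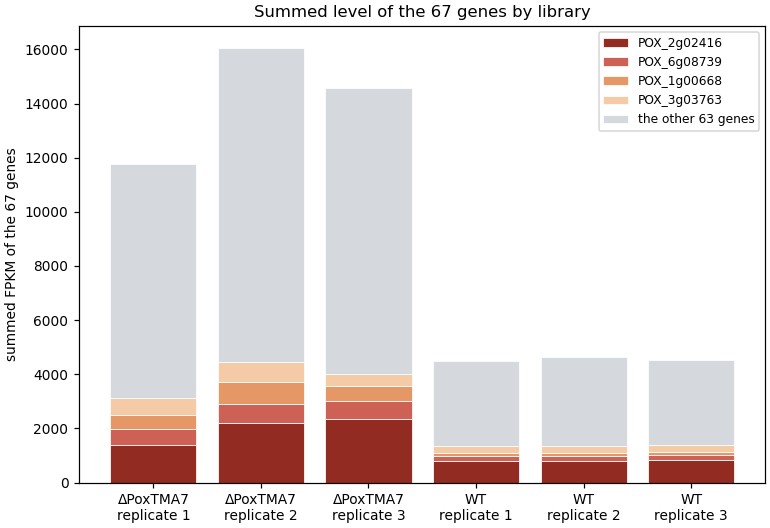
Summed FPKM of the 67 genes (vertical axis, from 0) in each ΔPoxTMA7 and WT library, with the 4 genes of highest mutant mean in colour and the other 63 in grey. The 3 mutant bars stand at 11777 to 16072 and the 3 WT bars at 4500.2 to 4638, and the grey part makes up most of each bar.

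The rule drew its limits through a continuous range of genes, and it was chosen on the same values. Just above a mutant mean of 40 FPKM lay POX_5g07108, POX_2g03550 and POX_5g07812, with means of 40.5, 42.3 and 42.7 FPKM, and just below it POX_8g10072, POX_7g10039 and POX_6g08119, with 39.5, 38.6 and 37.6 FPKM. At the ratio of 2, the lowest inside were POX_1g00826 (2.01), POX_4g05854 (2.04) and POX_7g09793 (2.04), and the highest outside were POX_1g00573 (1.999), POX_4g06236 (1.99) and POX_5g07702 (1.98). POX_1g00826 had 95.3, 188 and 203 FPKM in ΔPoxTMA7, against 77.3, 81.4 and 83.5 FPKM in WT, its replicate 1 being only 1.14 times the highest WT value. POX_4g05854 had 108, 141 and 173 FPKM in ΔPoxTMA7, against 63.2, 66.4 and 77.4 FPKM in WT. POX_1g00573 was more abundant than any of the 67, with 3142, 3732 and 5028 FPKM in ΔPoxTMA7, against 1900.5, 2135 and 1918 FPKM in WT. On overlap between the genotypes, the nearest inside was POX_6g08026, and 7 genes were kept out by this condition alone. The nearest of these, POX_1g00220, had 20.5, 53.1 and 59.9 FPKM in ΔPoxTMA7, against 20.5, 18.5 and 20.3 FPKM in WT, so mutant replicate 1 fell just under a WT library. POX_5g07706 was kept out in the same way, with 169, 543 and 506 FPKM in ΔPoxTMA7, against 151, 163 and 169.6 FPKM in WT. The condition on the highest WT value kept no gene out.

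All of the 67 passed the filter of the test over all genes (at least 1 FPKM in at least 3 libraries). That test, limma on log2(FPKM + 1), called 66 of the 67 higher in ΔPoxTMA7, beside 30.8% of tested genes, and 48% of tested genes in either direction. It used the same contrast as the rule, so nothing is read from this count. The exception was POX_6g08026. At least 2-fold higher on that scale were 62 of the 67, beside 3.41% of tested genes. Over all tested genes 2075 were called higher and 1163 lower, but median-ratio scaling turned this split to 1494 higher and 1758 lower, and quantile normalization gave 1681 higher and 1444 lower. With median-ratio scaling 52 of the 67 still met the rule and the median ratio was 2.54.

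The 67 were spread over the 8 large identifier groups, with 4 to 11 in each, or 0.717% to 1.43% of the tested genes of a group. Their implied lengths ran from 2089 to 6482 bp with a median of 3731 bp, against 3892 bp over all tested genes. At least 719 reads were recovered for each of the 67 in every mutant library. All but POX_6g09021 had at least 100 reads in every library.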

How the data were processed

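For each of the 6 libraries the authors deposited a table of FPKM values by gene identifier, per the file headers. Bcl2fastq is named in the submitters' processing notes; no source used here gives the aligner, counter, genome build, annotation or strandedness. RNA was selected on poly(A), per the labels' protocols. Identifiers absent from a table were set to 0. Reads were recovered from the FPKM steps: the relative depth came from genes under 0.15 FPKM, the totals from whole implied lengths (99.2% of 1233 low genes), and each gene's reads were the smallest whole numbers, within 0.002, that fitted every library. They summed to 99.6% to 99.7% of the totals.

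The design had foreseen limma for normalized values, with no other covariate. In R 4.3.3, limma 3.58.1 was run on log2(FPKM + 1) of the genes reaching 1 FPKM in 3 or more libraries (both genotypes, empirical Bayes with trend, two-sided, Benjamini-Hochberg over 6743 genes, threshold 0.05). Log2 changes understate low genes. The fit was also run on simulated data with equal spread in both genotypes and few changed genes. The real libraries differ in both respects, so that run does not give the error rates of the fit here. Alternatives were another pseudocount, other filters on low values, other limits of the rule, median-ratio and quantile scaling, voom on the recovered reads, a replicate block, and leaving out each library. Summaries used Python 3.11.15, NumPy 2.4.6 and pandas 2.3.3. P-values weigh the genotype difference against the spread between libraries, which may be technical. That spread was pooled over both genotypes, although the mutant libraries differed among themselves more than the WT libraries. Intervals of a level are SD over 3 libraries, and reads without molecular identifiers are not independent molecules.

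The genes named one by one followed a rule: the 12 of highest mutant mean, the 12 of largest ratio, the 6 of highest WT mean, the 5 of largest and of smallest mutant CV, the 5 of largest WT CV, consecutive identifiers, and those nearest each limit of the rule. Neighbours and genes beside them were added after their values were seen. The members and lists were chosen with earlier results of these data known. Planned lists by product name could not be formed.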

Additional observations from a re-analysis of the deposited data

How the results depend on the processing

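The number of genes that met the rule, 67 as reported, was 149 at a ratio of at least 1.5 and 28 at a ratio of at least 3. Leaving out 1 library gave 62 to 93 genes, the lowest without ΔPoxTMA7 replicate 3 and the highest without ΔPoxTMA7 replicate 1; 65 of the 67 were kept without replicate 1 and 56 without replicate 3. It was 52 with median-ratio scaling, 78 with quantile normalization, 80 at 30 FPKM and 57 at 60 FPKM. The ratio of the summed levels, 3.10 as reported, was 2.89 to 3.36 with 1 library left out and 2.80 with median-ratio scaling. The limma test called 62 to 67 of the 67 higher with 1 library left out, beside 20.9% to 35.7% of tested genes. In either direction it then called 2188 to 3869 of the tested genes, beside 3238 as reported. With the replicate block it called 67 of the 67 higher, beside 28.2% of tested genes, and 2995 genes in either direction. The rule used the same contrast, so nothing is read from these counts of the 67. Whether the replicate numbers pair the libraries was not settled. Mutant and WT libraries of 1 number had deviations correlated at 0.022, 0.033 and 0.173, not all above 0.1. Those of different numbers had correlations of -0.152 to 0.091. No ratio of the 67 could fall under 1 with 1 library left out, because the rule asked for every mutant value above every WT value. The ratio fell under 2 in 8 of the 67 without ΔPoxTMA7 replicate 3 and in 13 with median-ratio scaling. In the other settings run on it (another library left out, quantile normalization) it fell under 2 in at most 2 genes. In the shallowest library 3 reads correspond to 0.0716 FPKM at the median implied length, which limits only the faint neighbours named above.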

Other observations

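Leaving out ΔPoxTMA7 replicate 1 let 28 further genes meet the rule, and in 3 of them mutant replicate 1 lay below every WT library. POX_4g06333 had 4.14, 224 and 315 FPKM in ΔPoxTMA7, against 9.73, 7.79 and 10.7 FPKM in WT, with the other mutant libraries far above WT. POX_4g05228 had 24.0, 321 and 178 FPKM in ΔPoxTMA7, against 38.4, 65.3 and 31.6 FPKM in WT. POX_8g10178 had 13.5, 40.9 and 54.0 FPKM in ΔPoxTMA7, against 23.2, 20.1 and 23.5 FPKM in WT. In 6 of the 28 genes replicate 1 did not exceed the highest WT value. Over the 28, the median of the level relative to the WT mean was 1.47 in replicate 1 and 2.21 for the mean of replicates 2 and 3. These genes were picked after their values were seen, and no test was made.

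Leaving out WT replicate 1 brought in 7 genes, 4 of which shared 1 pattern over the libraries. POX_12g10644 had 678, 389 and 297 FPKM in ΔPoxTMA7, against 457, 31.5 and 39.6 FPKM in WT. POX_8g10629 had 674, 379 and 288 FPKM in ΔPoxTMA7, against 430.1, 31.1 and 38.7 FPKM in WT, close to those of POX_12g10644 in every library. POX_8g10628 had 527, 153 and 227 FPKM in ΔPoxTMA7, against 298, 42.6 and 64.5 FPKM in WT, and POX_18g10668 had 174, 79.5 and 82.5 FPKM in ΔPoxTMA7, against 117, 38.9 and 49.5 FPKM in WT. In all 4, replicate 1 was the highest library of both genotypes. How reads fitting several genes were counted is not stated, and whether POX_12g10644 and POX_8g10629 share reads was not tested. Their levels are uncertain if they do.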
